A study of Mus musculus with 2 samples.

Results

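The 10 genes described here encode amino acid transporters of the plasma membrane: Slc6a9, Slc7a1, Slc7a5, Slc7a11, Slc3a2, Slc1a4, Slc1a5, Slc38a1, Slc38a2 and Slc38a5. They were chosen by name and matched to Ensembl identifiers, and all 10 were found among 42462 genes with a symbol. RNA was measured in 2 libraries of a single group, G1E-ER4 cells that had received 10 nM 17beta-estradiol for 24 h. G1E-ER4 is a clonal mouse erythroid line without a working Gata1 gene of its own, into which GATA1 was put back in a form that is active only with estradiol bound; the labels give its strain as C57BL/6J and its sex as male. Both cultures carried the same alleles and the same treatment, and an untreated culture was not analysed here. The values are therefore levels of 1 induced state and its replicates, and no response to estradiol was tested.

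Red cell precursors import amino acids for globin, for haem and for growth. Glycine enters haem at the first step of its synthesis, leucine signals to the growth kinase complex mTORC1, and cystine feeds glutathione. Several transporters work as exchangers, so that an abundant amino acid such as glutamine is taken up by one carrier and traded outwards by another. Slc3a2 is a glycoprotein heavy chain that carries a light chain of the Slc7 family to the cell surface, and the light chain decides which amino acids pass.

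The libraries held 62080996 and 41051158 expected counts (reads assigned to genes, fractional where a read fits several) in replicates 1 and 2. All 12 erythroid markers, among them Klf1 and Alas2, reached 1 TPM (a level scaled by transcript length and library) in both libraries, and no myeloid, mast cell, lymphoid, stromal or endothelial marker did. Of the 6 megakaryocyte markers, 2 did, Itga2b and Gp1ba. Cpa3, the highest mast cell marker, was at 0.37 and 0.6 TPM in replicates 1 and 2. Protein-coding genes of the nucleus held only 14.1% and 14.4% of all TPM. A level of 1 TPM is therefore a higher bar here than where such genes hold most of the TPM. A chi-square comparison gave 75.8 per degree of freedom over 12223 genes, so the libraries were counted as separate samples. Where nothing else is said, values are deposited TPM with the SD over 2 libraries. In bulk RNA, fewer cells that express a gene and less of its RNA per cell cannot be told apart.

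The 10 genes fell into 7 at or above 1 TPM and 3 under it, of which Slc7a11 and Slc38a1 had at most 30 counts in a library. Of the 10, 7 reached 1 TPM in both libraries, against 36.3% of the 21461 protein-coding genes of the nucleus. At 5 TPM the count was 4, against 20.3% of those genes. The genes were listed with earlier results known, so this share describes them and supports nothing further. The median of the 10 was 2.21 TPM (2.08 TPM in replicate 1 and 2.35 TPM in replicate 2), against a median of 0.02 TPM for all protein-coding genes. Slc38a2, the middle one of the 7 that reached 1 TPM, was at 6.36 ± 0.325 TPM, near the median of 6.43 TPM for the 7781 protein-coding genes that did. Together the 10 genes summed to 72.9 TPM in replicate 1 and 74.8 TPM in replicate 2. Slc3a2 and Slc7a5 alone made up 65.7% and 61.8% of those sums.

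**Figure D1:**
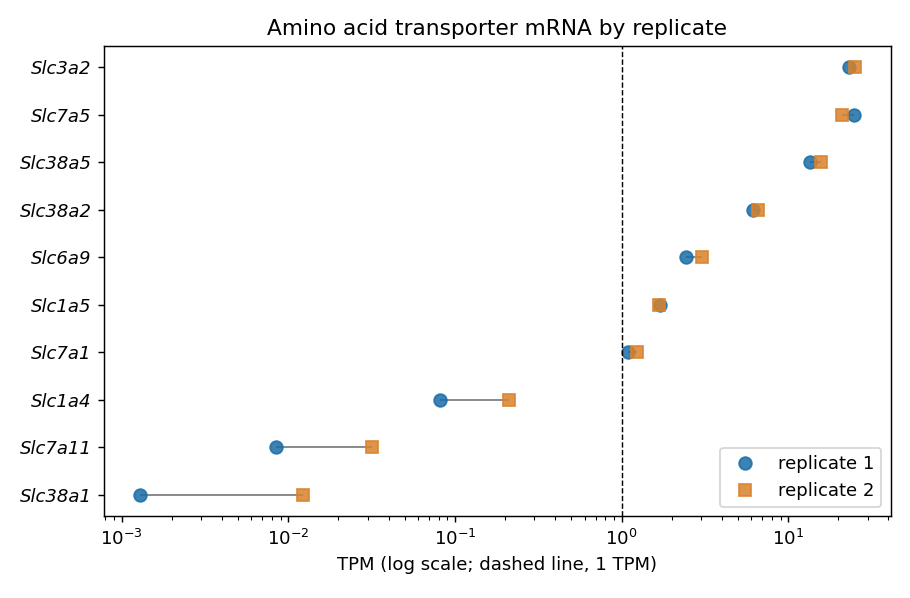
Level of each transporter in TPM on a log axis, with a circle for replicate 1 and a square for replicate 2; a grey line joins the replicates of a gene, and values under 0.1 TPM were recomputed from count and effective length. For each of the 7 genes right of the dashed line at 1 TPM, circle and square lie close together. Slc1a4, Slc7a11 and Slc38a1 lie left of that line with the square to the right of the circle.

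Slc3a2, the shared heavy chain, and Slc7a5, the light chain also known as LAT1 that takes up leucine and other large neutral amino acids, were the highest. Slc3a2 (ENSMUSG00000010095.9; GRCm38 chromosome 19, 8706882 to 8723369, minus strand) had levels of 23.1 and 25.1 TPM in replicates 1 and 2, from 11265 and 8434 counts. Slc7a5 (ENSMUSG00000040010.10; chromosome 8, 121881150 to 121907694, minus strand) was at 24.7 TPM and 21.1 TPM, from 16404 and 9748 counts. Which of the 2 was higher depended on the library. The log2 ratio of Slc3a2 over Slc7a5 was -0.10 in replicate 1 and 0.25 in replicate 2, with a mean of 0.08 ± 0.25, so the levels did not differ beyond their spread. Without division by length, the log2 ratio of their expected counts was -0.38 ± 0.24, larger than its SD. Their means were 24.1 ± 1.43 TPM for Slc3a2 and 22.9 ± 2.54 TPM for Slc7a5, higher than 94.6% and 94.4% of all protein-coding genes.

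Slc3a2 also serves light chains other than Slc7a5. Slc7a8 (LAT2, a neutral amino acid exchanger) was at 5.75 ± 0.332 TPM and Slc7a6 (an exchanger of cationic for neutral amino acids) at 3.52 ± 0.339 TPM. Slc7a7 had 4 and 12 counts, and Slc7a10 had 0 counts in both libraries. Slc7a5 held 71.7% and 70.4% of the summed light chain TPM in replicates 1 and 2, Slc7a8 held 17.4% and 18.4%, and Slc7a6 held 10.9% in each. Slc7a5 exceeded Slc7a8 by 3.98-fold (log2 1.99 ± 0.08) and Slc7a6 by 6.51-fold (log2 2.70 ± 0.02). The shares of the light chains were thus nearly equal in both cultures.

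Set against the sum of its 6 light chains, the heavy chain was the lower partner in both libraries. In replicate 1 Slc3a2 had 23.1 TPM against 34.5 TPM for the light chains, and in replicate 2 it had 25.1 TPM against 30.0 TPM. The log2 ratio was -0.58 and -0.26, with a mean of -0.42 ± 0.23. Not divided by length, the same ratio was -0.93 ± 0.22 on expected counts. Slc3a1, the other heavy chain of the family, had 0 and 8 counts.

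**Figure D2:**
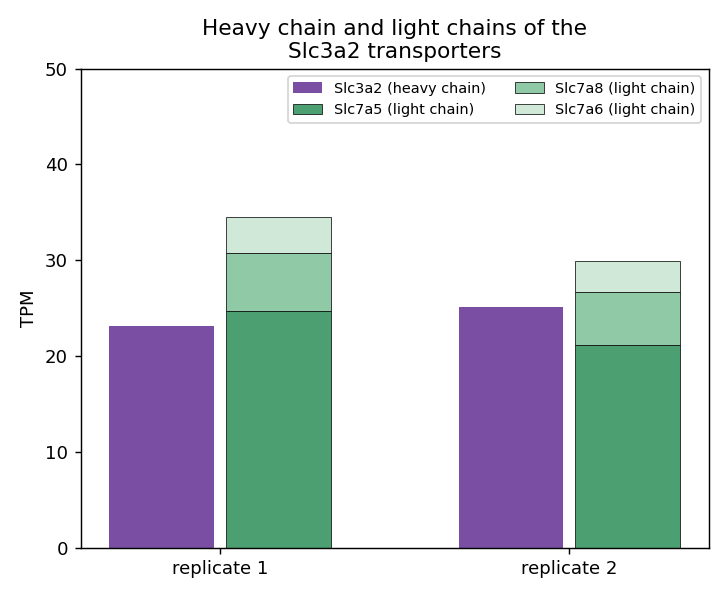
Heavy chain (left bar) and stacked light chains (right bar) in TPM for each replicate; Slc7a7, Slc7a10 and Slc7a11 are too low to be drawn. The left bar is lower than the stack in both libraries, 23.1 against 34.5 TPM and 25.1 against 30.0 TPM.

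Slc7a11, the light chain known as xCT that exchanges cystine for glutamate, was almost without reads (ENSMUSG00000027737.6; chromosome 3, 49892526 to 50443614, minus strand). It had 7 counts in replicate 1 and 30 in replicate 2, which the tables give as 0.01 and 0.03 TPM. Slc3a2 exceeded it by 2740-fold in replicate 1 and 792-fold in replicate 2, and for the first of these the 95% counting interval ran from 1329 to 6816. The log2 ratio averaged 10.52 ± 1.27, and 9.03 ± 0.78 with posterior mean TPM, a second estimate in the tables. Genes that make glutathione from cysteine were expressed beside it: Gclm and Gclc, the subunits of the rate-limiting ligase, were at 19.8 ± 1.48 TPM and 9.11 ± 0.827 TPM. Gpx4, which uses glutathione to reduce lipid peroxides, was at 231 ± 4.77 TPM, and Txnrd1, a thioredoxin reductase, at 12.4 ± 1.82 TPM. Of the 12 genes in this list, 7 reached 1 TPM in both libraries. Cth, which makes cysteine from cystathionine, had 0 counts in both, and Cbs, the enzyme before it, had 0 and 3. Low xCT mRNA thus stood beside low mRNA of both transsulphuration enzymes.

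Among the sodium-coupled neutral transporters, Slc38a5 led and Slc38a1 was all but absent. Slc38a5 (SNAT5, which carries glutamine, asparagine, histidine, serine and glycine; ENSMUSG00000031170.10; chromosome X, 8271133 to 8280179, plus strand) was at 13.6 and 15.8 TPM, from 4636 and 3712 counts. Slc38a2 (SNAT2, the system A carrier of small neutral amino acids; ENSMUSG00000022462.6; chromosome 15, 96687392 to 96699730, minus strand) was at 6.13 and 6.59 TPM, from 5563 and 4130 counts. Slc38a5 lay 2.30-fold above Slc38a2 (log2 1.20 ± 0.08) in TPM, which divides by length. The annotated Slc38a2 transcript has 4626 bases and Slc38a5-201 has 1868, and expected counts not divided by length put Slc38a5 below Slc38a2 (log2 -0.21 ± 0.08). Slc38a1 (SNAT1; ENSMUSG00000023169.10; chromosome 15, 96571418 to 96642913, minus strand) had 2 and 12 counts, listed at 0.00 and 0.01 TPM. Its ratio to Slc38a2, its neighbour on chromosome 15, rests on those few reads: Slc38a2 was 4748-fold higher in replicate 1 (95% counting interval 1314 to 39215) and 534-fold higher in replicate 2 (306 to 1035). Slc38a3, which like Slc38a5 is a system N carrier, had 0 and 4 counts. Each of these intervals covers counting error only.

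Slc1a5 and Slc1a4, the exchangers ASCT2 and ASCT1 for small neutral amino acids, with glutamine carried by Slc1a5, were far apart. Slc1a5 (ENSMUSG00000001918.13; chromosome 7, 16781340 to 16798274, plus strand) was at 1.71 and 1.67 TPM, from 582 and 395 counts. Slc1a4 (ENSMUSG00000020142.8; chromosome 11, 20302180 to 20332713, minus strand) was at 0.08 and 0.21 TPM, from 62 and 113 counts. Slc1a5 was higher in both libraries, by 21.1-fold in replicate 1 and 7.95-fold in replicate 2 (log2 3.69 ± 0.99). Slc1a5 itself was low beside Slc7a5, at 0.0739 of its level (log2 -3.76 ± 0.14). It lay above only 8.07% of the protein-coding genes that reached 1 TPM.

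Slc6a9 encodes the glycine transporter GLYT1 (ENSMUSG00000028542.13, chromosome 4, 117834506 to 117875198, plus strand). Its level was 2.45 TPM in the first and 3.03 TPM in the second library, from 1531 and 1254 counts, with a mean of 2.74 ± 0.41 TPM. Slc38a5, which also carries glycine, lay 5.37-fold above Slc6a9 in TPM. Slc6a5, the other glycine transporter of the family, had 6 and 5 counts. Slc6a9 was 575-fold higher in replicate 1 (95% counting interval 264 to 1569) and 590-fold higher in replicate 2 (252 to 1821). The log2 ratio was 9.19 ± 0.03, and 8.23 ± 0.22 with posterior mean TPM. Slc25a38, which brings glycine into the mitochondrion for haem, was at 25.7 ± 4.05 TPM, and Slc6a9 reached 0.107 and 0.106 of its level in replicates 1 and 2 (log2 -3.23 ± 0.01). Alas2, the erythroid enzyme that joins glycine to succinyl-CoA, was at 82.7 ± 2.12 TPM. Dld, a subunit of the glycine cleavage system, was at 31.6 ± 0.276 TPM, and Shmt2, which makes glycine from serine in the mitochondrion, at 9.79 ± 3.61 TPM. Of 12 genes of glycine use, 8 reached 1 TPM in both libraries, and Gldc, the glycine cleavage decarboxylase, had 0 counts in both.

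Slc7a1, the cationic transporter CAT1 for arginine and lysine, was the lowest of the 7 expressed genes (ENSMUSG00000041313.10; chromosome 5, 148327410 to 148399904, minus strand). It was at 1.09 and 1.24 TPM, from 1560 and 1229 counts. Its relatives were lower still, with 0 and 1 counts for Slc7a2 and 1 and 0 for Slc7a3. Among genes of arginine and polyamine metabolism, Oaz1, an inhibitor of ornithine decarboxylase, was at 78.0 ± 1.22 TPM, and Odc1, that decarboxylase, at 73.4 ± 11.9 TPM. Sat1, which acetylates polyamines, was at 55.8 ± 7.47 TPM, and Eif5a, the translation factor modified with the polyamine spermidine, at 41.3 ± 12.5 TPM. These are the highest 4 of 19 such genes, whose medians were 5.53 and 6.18 TPM. Of the 19, 12 reached 1 TPM in both libraries, and Arg1 and Arg2, the arginases, had 0 counts.

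In order of mean level the genes ran Slc3a2, Slc7a5, Slc38a5, Slc38a2, Slc6a9, Slc1a5, Slc7a1, Slc1a4, Slc7a11 and Slc38a1. A pair of genes is called if both libraries gave the log2 ratio 1 sign and its mean exceeded its SD. With 2 libraries the rule is a lenient description, and genes of equal level can also be called. Under that rule 44 of the 45 pairs were called, the exception being Slc3a2 and Slc7a5, and 20 of the 21 pairs among the 7 expressed genes. The same rule called 92.1% of all 30268090 pairs of protein-coding genes at 1 TPM and 94.2% of pairs with counts in both libraries, so the share among the transporters is near the background and sets nothing apart. Smaller steps between neighbours were 0.54 ± 0.16 on the log2 scale for Slc1a5 over Slc7a1, 0.64 ± 0.32 for Slc7a5 over Slc38a5 and 0.69 ± 0.24 for Slc6a9 over Slc1a5. The step across 1 TPM, Slc7a1 over Slc1a4, was 3.15 ± 0.84. With 2 replicates an exact two-sided sign-flip test cannot give a p under 0.5, so no p is given.

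Most transporter mRNA came as 1 form. Of the 7 expressed genes, 6 have more than 1 annotated transcript, and in all 6 the largest held at least 50% of the gene's TPM in both libraries, against 66.9% of the 5845 protein-coding genes at 1 TPM that have several transcripts. Slc7a1-201 held 100% in each library, Slc38a5-201 held 99.3% and 97.2%, Slc3a2-201 held 97.8% and 97.9%, and Slc7a5-201 held 97.2% and 98.0%. Slc38a2 has a single transcript in the tables. Slc3a2-202, which starts upstream, held only 2.18% and 2.13% of Slc3a2, from 270 and 198 counts.

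Slc6a9 and Slc1a5 were divided further. Slc6a9-202 held 60.7 ± 1.42% and Slc6a9-201 held 35.1 ± 0.46% of Slc6a9. Both encode the same annotated protein and differ outside the coding sequence, and together they made up 95.9 ± 1.88%. Slc6a9-204 and Slc6a9-211, which begin farther downstream, had 0 and 7.80 counts and 3.22 and 0 counts in replicates 1 and 2. In Slc1a5 the protein-coding form Slc1a5-201 held 58.7% and 57.0% of TPM, and transcripts annotated as retained introns held 42.2 ± 1.23%. That share lay above 89.4% of the 3485 expressed protein-coding genes with such a transcript, whose median was 11.7%. The largest of these forms, Slc1a5-203, is 396 bases long and held 22.1% and 28.3% on only 15 and 12 counts. By counts, Slc1a5-201 held 88.0% of Slc1a5 on average, so the short transcripts weigh more in TPM than in reads. With posterior mean TPM its share averaged 49.0%.

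**Figure D3:**
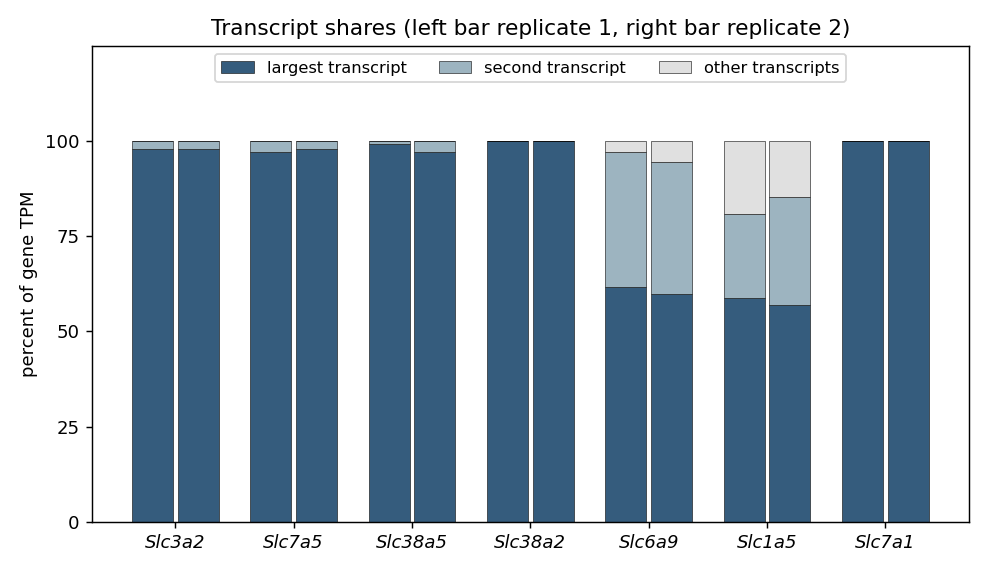
Percent of each gene's TPM held by its largest transcript, its second and all others, for the 7 genes at 1 TPM or more; the left bar of each couple is replicate 1 and the right bar replicate 2. Slc6a9 and Slc1a5 are the genes whose largest form holds well under 97%, at 61.7% and 59.7% for Slc6a9 and 58.7% and 57.0% for Slc1a5.

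Promoter sequence was set beside these start sites for the genes in the RefSeq table (GRCm38.p6), which held 10 windows of 7 members, each from 250 bases before to 50 after an annotated start. Slc7a5, Slc1a5 and Slc38a1 are not in it. Slc7a1 has 2 windows, and all of its TPM came from the transcript that begins at the first of them. Each window was searched on both strands for TGATGNAA (the amino acid response element, which ATF4 binds with partners of the C/EBP family) and for TGACNNNGC (the antioxidant response element of NRF2), which occur in 3.97% and 12.4% of all 32851 windows. AGATAA, a spelling of a GATA site, occurs in 11.2% of them. An E-box, spelled CACGTG and the same on both strands, occurs in 7.15%. No window of the 10 genes matched more than 1 of the 4 motifs, so no matches of different motifs overlapped. Positions given are those of the first base of a match. TGATGNAA was found in Slc7a11, once on each strand at 66 and 47 bases before the start. In Slc1a4 the match begins 4 bases before the start and runs across it. Both genes are under 1 TPM, with 7 and 30 counts for Slc7a11 and 62 and 113 for Slc1a4. Sequence outside the windows was not searched, so a gene without a match can hold the element elsewhere. The E-box was found in Slc38a5 at 30 bases before the start. The antioxidant element was found in Slc38a2, in the first window of Slc7a1 and in both downstream windows of Slc6a9. AGATAA was found in none. Other spellings of a GATA site were not searched, and AGATAG and TGATAG stand in the windows of Slc38a5 and Slc7a11. No Slc6a9 transcript begins within 50 bases of the start in its first window. Slc6a9-201, with 35.1 ± 0.46% of Slc6a9 TPM, begins inside that window but farther from its start. Transcripts that begin within 50 bases of the starts of the downstream windows held at most 1.53% of Slc6a9 TPM in a library. Slc6a9-202, which held 60.7 ± 1.42% of its TPM, begins upstream of all 3 windows. The matches in Slc6a9, and its lack of AGATAA, therefore do not describe the start that gave most of its mRNA.

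The windows that hold TGATGNAA are printed first, then Slc38a5 as the highest member with a match, then the used and the unused start of Slc7a1. Letters run 5′ to 3′ on the gene's strand, and capitals mark the matches to any of the 4 motifs.
Slc7a11, chr3:50443564-50443863, minus strand: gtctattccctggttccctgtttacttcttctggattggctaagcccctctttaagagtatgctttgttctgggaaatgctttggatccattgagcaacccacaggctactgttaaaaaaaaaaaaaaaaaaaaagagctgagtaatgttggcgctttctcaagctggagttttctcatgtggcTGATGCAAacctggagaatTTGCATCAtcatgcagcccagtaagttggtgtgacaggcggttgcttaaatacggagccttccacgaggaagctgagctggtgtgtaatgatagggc
Slc1a4, chr11:20332664-20332963, minus strand: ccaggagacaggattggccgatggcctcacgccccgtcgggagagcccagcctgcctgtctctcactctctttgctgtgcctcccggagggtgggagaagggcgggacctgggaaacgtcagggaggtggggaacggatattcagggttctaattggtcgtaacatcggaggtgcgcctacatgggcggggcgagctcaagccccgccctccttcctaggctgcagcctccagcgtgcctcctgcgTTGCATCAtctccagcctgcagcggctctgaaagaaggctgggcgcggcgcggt
Slc38a5, chrX:8271131-8271430, plus strand: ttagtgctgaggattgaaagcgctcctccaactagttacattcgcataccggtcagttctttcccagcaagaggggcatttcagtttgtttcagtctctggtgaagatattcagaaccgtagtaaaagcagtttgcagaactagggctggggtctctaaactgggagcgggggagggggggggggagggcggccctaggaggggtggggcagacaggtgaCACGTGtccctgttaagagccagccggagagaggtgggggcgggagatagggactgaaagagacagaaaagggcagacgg
Slc7a1 first start, chr5:148399855-148400154, minus strand: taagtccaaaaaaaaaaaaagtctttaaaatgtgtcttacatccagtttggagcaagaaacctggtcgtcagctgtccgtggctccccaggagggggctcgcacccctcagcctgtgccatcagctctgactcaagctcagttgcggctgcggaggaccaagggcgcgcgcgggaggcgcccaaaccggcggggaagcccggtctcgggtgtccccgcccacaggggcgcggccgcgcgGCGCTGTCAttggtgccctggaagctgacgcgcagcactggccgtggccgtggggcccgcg
Slc7a1 second start, chr5:148392766-148393065, minus strand: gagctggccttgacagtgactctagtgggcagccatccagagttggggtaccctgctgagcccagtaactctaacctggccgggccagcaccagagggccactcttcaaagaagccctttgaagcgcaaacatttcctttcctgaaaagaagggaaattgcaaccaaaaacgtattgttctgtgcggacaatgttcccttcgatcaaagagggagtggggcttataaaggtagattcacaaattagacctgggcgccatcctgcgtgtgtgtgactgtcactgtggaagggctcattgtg
The used start of Slc7a1 lies in 65.0% G and C with 27 CpG, and the unused one in 51.7% with 7, against medians of 52.7% and 7 over all windows. The window of Slc7a11 has 44.7% G and C with 4 CpG, that of Slc38a2 73.0% with 41 CpG.

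ATF4 is the transcription factor of the amino acid response, and several of the 10 genes are known as its targets. Its own mRNA was at 22.5 ± 1.75 TPM, and of 25 genes of the pathway 19 reached 1 TPM in both libraries. Ddit3, which encodes the stress factor CHOP, was at 91.9 ± 8.94 TPM, Asns, asparagine synthetase, at 76.9 ± 0.346 TPM, and Ppp1r15a, a phosphatase subunit that reverses the response, at 69.6 ± 7.49 TPM. Eif2ak1, the haem-regulated kinase upstream of ATF4, was at 22.5 ± 2.52 TPM. All 25 have a promoter window, and 6 of these hold TGATGNAA. Of the 6, Asns, Nupr1 (5.82 and 4.14 TPM) and Pck2 (1.71 and 1.68 TPM) reached 1 TPM in both libraries. Trib3 (0.38 and 0.58 TPM), Pycr1 (0.04 and 0.18 TPM) and Chac1 (0 and 6 counts) did not. Genes with the element were thus found at high and at very low levels. Among protein-coding genes with a window, 24.2% of the 644 that hold the element in a window reached 1 TPM in both libraries. Of the 15673 without it in a window, 39.1% did. Windows with the element also have fewer CpG, a median of 3 against 7 over all windows. The part of base composition in this difference was not tested.

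Beyond the 10 genes, few plasma membrane amino acid transporters were expressed. Of 35 others, 4 reached 1 TPM in both libraries: Slc16a10, an aromatic amino acid carrier, at 7.38 ± 0.0424 TPM, Slc7a8, Slc7a6 and Slc43a2 (LAT4, a carrier of large neutral amino acids) at 2.25 ± 0.106 TPM. Another 13 of the 35 had 0 counts in both. Of 10 lysosomal carriers, 7 reached 1 TPM in both libraries, led by Ctns, the cystine exporter of the lysosome, at 20.1 ± 3.01 TPM and Pqlc2, an exporter of cationic amino acids, at 6.90 ± 0.134 TPM. Slc15a4, a histidine and peptide carrier, was at 4.66 ± 0.396 TPM, and Mfsd12, which is needed for cystine import into lysosomes, at 3.11 ± 0.0707 TPM. Of 34 measured genes by which mTORC1 senses amino acids, 29 reached 1 TPM. They were led by Sec13, a subunit of GATOR2, at 35.3 ± 0.94 TPM and Lamtor3, a subunit of Ragulator, at 32.2 ± 3.02 TPM. The Rag GTPase Rragc was at 28.3 ± 2.67 TPM and Fnip1, a partner of folliculin, at 27.0 ± 3.87 TPM. Castor1, the arginine sensor, was at 0.14 and 0.08 TPM, and the related Castor2 had 0 and 1 counts.

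**Figure D4:**
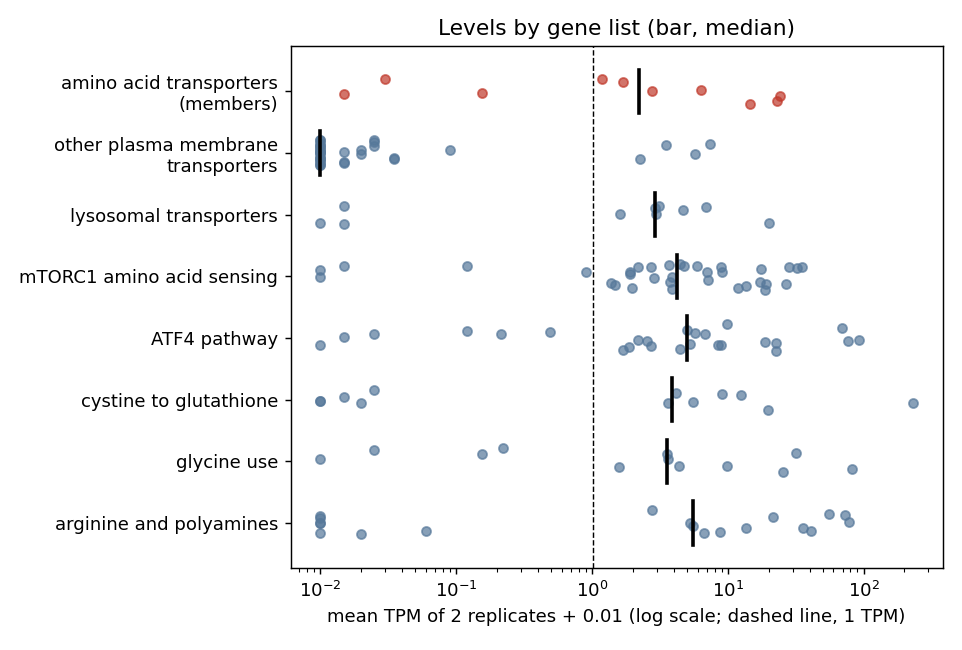
Mean TPM of every measured gene of each list, with 0.01 added so that 0 can be drawn on the log axis; the short bar is the list's median and the dashed line marks 1 TPM. The 10 transporters (top row) split into 7 right and 3 left of the line, while 31 of the 35 other plasma membrane transporters lie left of it.

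None of the 7 expressed genes differed by 1.5-fold between replicates. Read counts were scaled to the library with TMM factors, which put libraries on a common scale, and a 2-fold difference was looked for among genes averaging 100 counts or more. None of the 7 transporters past that count differed so, against 2.03% of 9722 genes (1.54% higher in replicate 2). At 1.5-fold the count was again 0, against 7.81%. Their log2 ratios of replicate 2 over replicate 1 ran from -0.19 for Slc7a5 to 0.28 for Slc6a9. The 7 ratios thus lie near the median size of 0.16 over all tested genes. The SD of TPM was 1.67% of the mean for Slc1a5, 5.11% for Slc38a2 and 5.92% for Slc3a2, under the median of 7.62% over protein-coding genes at 1 TPM. It was 9.10% for Slc7a1, 10.7% for Slc38a5, 11.1% for Slc7a5 and 15.0% for Slc6a9, over that median. Of the 7, 5 had the higher TPM in replicate 2, Slc7a5 and Slc1a5 being the exceptions, against 43.6% of the 7781 protein-coding genes at 1 TPM.

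The 3 genes under 1 TPM were also all higher in replicate 2, the shallower library. Log2 ratios of replicate 2 over replicate 1 were 1.42 for Slc1a4, 2.57 for Slc7a11 and 2.82 for Slc38a1. With no minimum count these 3 differ 2-fold, as do 40.2% of 20713 genes with any count, and 28.8% are higher in replicate 2. Among the 3451 protein-coding genes under 1 TPM with counts in both libraries, 20.0% were 2-fold higher in replicate 2. Of the 8 myeloid markers, 7 were also 2-fold higher in replicate 2, Csf1r being the exception. The summed level of the 8 was 1.69 TPM in replicate 2 and 0.15 TPM in replicate 1. Also 2-fold higher in replicate 2 were 3 of the 6 megakaryocyte markers and 12 of the 35 other plasma membrane transporters. Among those 35, 1 was 2-fold higher in replicate 1. In replicates 1 and 2 S100a8 had 1 and 15 counts, Mpo 16 and 62, and Ngp 0 and 18. Replicate 2 had counts for 19353 genes and replicate 1 for 16115. The part of these differences in the levels of Slc1a4, Slc7a11 and Slc38a1 was not tested.

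**Figure D5:**
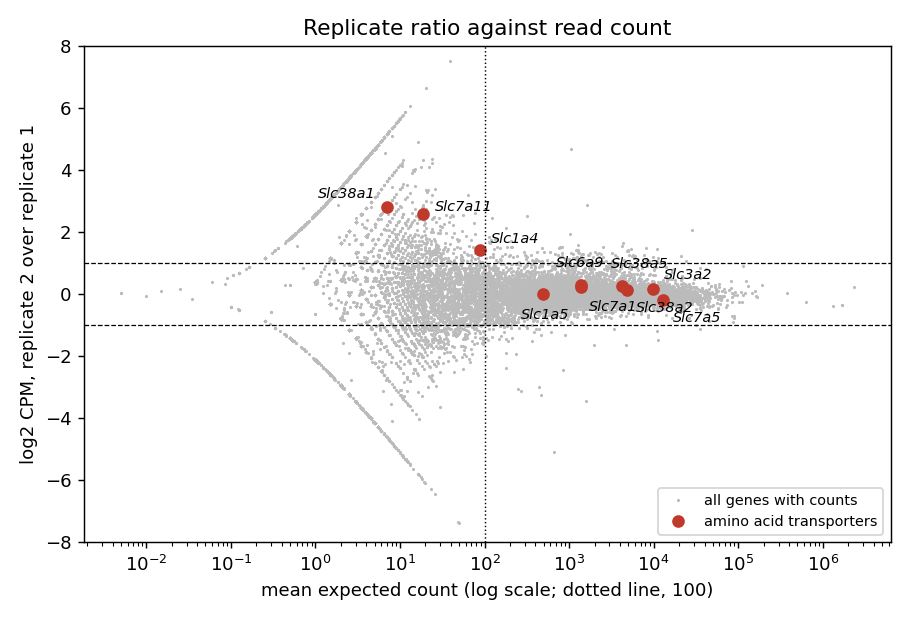
Log2 ratio of TMM-scaled CPM, replicate 2 over replicate 1, against mean expected count on a log axis, for all genes with counts (grey) and the 10 transporters (red); dashed lines mark 2-fold and the dotted line a mean count of 100. The 7 transporters right of the dotted line lie between -0.19 and 0.28, and the 3 left of it lie above the upper dashed line.

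The tables also give credible bounds of TPM for each gene and library, which describe the uncertainty of assigning reads. For 8 of the 10 transporters the bounds of the replicates did not overlap, the exceptions being Slc7a11 and Slc1a5, against 48.8% of protein-coding genes at 1 TPM and 38.7% of those with counts in both libraries. For Slc7a5 they ran from 24.2 to 25.9 TPM in replicate 1 and from 20.6 to 23.3 TPM in replicate 2. The bounds belong to the posterior mean, which for Slc6a9 was 2.70 and 3.36 TPM, so its TPM of 2.45 in replicate 1 lies just under its lower bound of 2.46 TPM. Slc6a9 shares 1429 exonic bases with Ccdc24 on the opposite strand, and Ccdc24 had 11 and 4 counts. On that strand it also shares 511 with Gm17114 (0 counts in both libraries) and 46 with B4galt2 (0 and 9 counts). Whether strand was used in counting is not given in the sources used here. Reads of Slc6a9 and of these genes therefore cannot be told apart in the shared stretches. Of the 10, Slc6a9 alone shares exonic bases with another annotated gene.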

How the data were processed

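Total RNA of 2 cultures was made into libraries with the ScriptSeq kit from 100 ng after depletion of ribosomal RNA, with sizes of 200 to 1000, per the labels. The authors deposited 1 gene and 1 transcript table per library, on assembly mm10 with GENCODE M4, as stated in text lists that accompany them; the program, the aligner and the use of strand are not given in the sources used here. Per the file headers, the deposited tables hold expected counts, TPM, FPKM and a percent of gene TPM for each transcript. The deposited bounds of TPM are a signal on the TPM scale whose interval level is not given. FPKM entered only as an alternative.

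Symbols, types and coordinates came from GENCODE M21 (GRCm38), joined on identifiers without version. The 10 genes, the other lists and the pairs were chosen with earlier results of these data known. The text names the 10 genes, the light chains, the genes of the pairs and, of each pathway list, the 4 highest by mean TPM and at most 2 below 1 TPM; of the marker lists it names only examples. Atf4, Nupr1, Pck2, Pycr1, Klf1, Csf1r and genes with few or no counts such as Cth, Gldc and Arg1 were named after their values were seen. Cpa3 was as well. Values deposited under 0.1 TPM were recomputed for ratios from count and effective length, since the tables give 2 decimals. TMM factors and CPM (prior count 0.5) were computed with R 4.3.3 and edgeR 4.0.16, and size factors for an alternative from DESeq2 1.42.0. Other steps used Python 3.11.15. The scripts were tested on simulated data. Counts behind the values of the 10 genes are printed beside them; since reads carry no molecular identifiers, intervals hold counting error alone. The labels call the samples biological replicates. Promoters came from RefSeq.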

Additional observations from a re-analysis of the deposited data

How the results depend on the processing

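The number of genes at 1 TPM in both libraries stayed at 7 with posterior mean TPM, with FPKM, with TPM scaled to the nuclear protein-coding total and without replicate 1 or replicate 2. It was 4 at 5 TPM and 10 when any count sufficed. The median of the 10 genes, 2.21 TPM, was 2.43 with posterior mean TPM, 7.51 as FPKM and 15.5 TPM scaled to that total, where the unit itself differs, and 2.08 to 2.35 TPM when either replicate was left out. No transporter differed 2-fold between replicates with DESeq2 size factors, with deposited TPM or at 1.5-fold, and 3 did without a minimum count, all with a mean under 100 counts. Of 37 ratio and setting combinations, 35 had the same sign and call. They cover the 13 ratios with counts in both libraries and leave out the 4 with a 0 count in a library. Posterior mean TPM was also left out for the ratios to Slc38a1. On expected counts not divided by length, Slc38a5 over Slc38a2 reversed to -0.21 and Slc3a2 over Slc7a5 was called at -0.38, since long transcripts then weigh more. There Slc6a9 over Slc25a38 was -1.82 and Slc1a5 over Slc7a5 was -4.72 on the log2 scale. A pseudocount of 1 TPM draws ratios to genes under 1 TPM towards 0, to 4.62 for Slc3a2 over Slc7a11, 1.89 for Slc6a9 over Slc6a5 and 1.23 for Slc1a5 over Slc1a4. The log2 ratio of Slc3a2 to its light chains was -0.93 on those counts, and ranged from -0.58 to -0.26 when 1 replicate was left out. Posterior mean TPM and TPM as deposited with 2 decimals (a setting chosen after seeing the data) leave Slc38a1 at 0 in replicate 1, so that 36 pairs remain, of which 35 were called in each case. A call needs an SD, so none was made with 1 library. With the share taken from posterior mean TPM, 5 of the 6 genes had a largest transcript at 50% or more in both libraries; Slc1a5-201 then averaged 49.0%. The values of Slc7a11 and Slc38a1, with at most 30 counts in a library, rest on few reads. No paired analysis was possible because the series has 1 group, so no replicate number is shared between groups.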
